A study of Mus musculus with 8 samples.

Results

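The 35 genes described here encode the machinery that copies DNA in S phase. They were chosen by name from a list of replication and S-phase genes and were placed in 4 role groups; no measured value enters the rule, though the list was drawn up with earlier results of these data known. These are origin licensing and helicase (12 genes), fork and polymerase (15), nucleotide supply (4) and G1/S regulators (4). All 35 were on the array, among 27759 genes or unnamed probes in all, and all 35 were among the 19108 that passed the filter on dim probes. Each of the 35 lay well above background on all 8 arrays.

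The samples were dorsal skin of male mice of the hairless SKH-1 strain, aged 19 weeks, all of which had received UVB on the back for 10 weeks. From 1 week after the last irradiation, the skin received 100 µL of enalapril maleate at 1% w/v in 30 vol % ethanol, or the 30 vol % ethanol alone (vehicle), 5 times a week over 2 weeks. Each group had 4 biological replicates, 1 array each, and neither group was free of UVB or of ethanol. Enalapril is a prodrug of an inhibitor of angiotensin-converting enzyme, an enzyme of the renin-angiotensin system. The series description also names a 6-week course and 6 mice per group, while the labels of all 8 samples give 2 weeks.

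Before a cell divides, the origin recognition complex, Cdc6 and Cdt1 load the MCM ring onto DNA in G1, and Cdc45 and GINS turn that ring into the active helicase at S-phase entry. Polymerase alpha with primase then starts each strand, the RFC clamp loader places the PCNA clamp, and polymerases delta and epsilon extend, while ribonucleotide reductase, thymidylate synthase and thymidine kinase supply deoxynucleotides. Many of these genes are targets of E2F transcription factors and are transcribed as cells pass from G1 into S. In skin, replication takes place mainly in the basal layer of the epidermis, in the hair follicle and in the sebaceous gland. The arrays measured whole skin, so fewer replicating cells and less RNA per replicating cell cannot be told apart.

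Promoter windows (250 bases before to 50 after the transcription start, RefSeq, GRCm38.p6) were found for 28 of the 35 genes. Ccne2, Rfc2, Pole, Prim2, Gins2, Gins1 and Mcm4 had none in the table used. The 4 genes whose levels differed between the groups are shown first, as the 120 bases just before the start on the gene's own strand, 5′ to 3′. Capitals mark CCAAT or its reverse complement, the letters bound by NF-Y, a factor common at cell cycle promoters. The stretches are chr12:24708134-24708253 (plus strand) for Rrm2, chr16:18811973-18812092 (minus) for Cdc45, chr11:117826015-117826134 (minus) for Tk1 and chr16:23127731-23127850 (minus) for Rfc4.
Rrm2: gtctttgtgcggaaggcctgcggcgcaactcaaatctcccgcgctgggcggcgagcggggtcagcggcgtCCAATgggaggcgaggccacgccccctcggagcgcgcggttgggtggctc
Cdc45: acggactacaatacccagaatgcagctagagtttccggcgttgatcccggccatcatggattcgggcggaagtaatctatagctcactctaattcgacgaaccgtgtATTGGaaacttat
Tk1: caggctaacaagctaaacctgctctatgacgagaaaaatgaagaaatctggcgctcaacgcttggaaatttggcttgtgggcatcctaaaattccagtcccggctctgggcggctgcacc
Rfc4: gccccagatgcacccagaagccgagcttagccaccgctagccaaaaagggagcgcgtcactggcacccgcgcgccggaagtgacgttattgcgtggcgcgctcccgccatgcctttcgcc

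The next stretches show members with E2F-type letters before the start. The letters searched were TTTCCCGC, TTTCGCGC, TTTGCCGC and TTTGGCGC on both strands, which can overlap each other, and capitals mark each match. The stretches are chr1:128359745-128359815 (minus) for Mcm6, chr8:75109342-75109381 (plus) for Mcm5, chr5:138172025-138172064 (minus) for Mcm7, chr11:98907997-98908036 (plus) for Cdc6, chrX:93632270-93632309 (minus) for Pola1 and chr5:151651209-151651248 (minus) for Rfc3.
Mcm6: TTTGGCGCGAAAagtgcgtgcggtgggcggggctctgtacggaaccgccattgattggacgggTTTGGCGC
Mcm5: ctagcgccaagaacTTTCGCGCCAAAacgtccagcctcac
Mcm7: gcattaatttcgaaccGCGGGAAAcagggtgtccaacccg
Cdc6: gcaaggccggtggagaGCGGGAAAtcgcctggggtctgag
Pola1: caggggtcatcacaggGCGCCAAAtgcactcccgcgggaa
Rfc3: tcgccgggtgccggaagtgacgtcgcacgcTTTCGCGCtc

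E2F-type letters stood in the first listed window of 9 of the 28 genes (32.1%), against 626 of 27025 genes with a window (2.32%). The median GC content of these first windows was 57.7% for the members and 52.7% for all genes. By role, the first windows with the letters were those of 6 of 9 licensing and helicase genes, 3 of 12 fork and polymerase genes, 0 of 4 nucleotide supply genes and 0 of 3 G1/S regulators. A later listed window held them for the G1/S regulator Uhrf1 (1 of its 2 windows) and for Lig1 (1 of 3). For 3 of the 9 genes (Mcm3, Cdt1 and Pold1) every match lay after the start. None of the 4 windows of Rrm2, Cdc45, Tk1 and Rfc4 held these 4 strings, which says only that these letters are not in these windows. CCAAT on either strand stood in 16 of the 28 windows (57.1%, against 37.9% of all genes), those of Rrm2 and Cdc45 among them. Other replication genes from a list of 79 held the E2F-type letters in 19 of 63 windows (30.2%).

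Levels below are log2 processed intensities minus the 75th percentile of the same array, so 0 is that percentile and a unit is a doubling. Across all 19108 genes, limma with Benjamini-Hochberg adjustment called 828 genes higher in enalapril (4.33%) and 1881 lower (9.84%) at an adjusted p under 0.05. Among the 35 replication genes, 2 were higher, Rrm2 and Cdc45, and 2 were lower, Tk1 and Rfc4, which is 5.71% in each direction. The median log2 difference was -0.046 for the 35 genes and -0.083 for all genes tested. The differences ran from -0.50 to 0.44, with 15 of 35 above 0 (40.2% of all genes), and 11 lay within 0.1 of 0. Called either way were 4 of the 35, against 14.2% of all genes, a count near that background.

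The groups did not overlap for 3 members on the higher side (Rrm2, Cdc45 and Pola1; 6.6% of all genes) and 4 on the lower side (Tk1, Rfc4, Pcna and Rpa2; 15.4% of all genes), 7 of 35 together against 22% of all genes. An unadjusted p under 0.05 was reached by 7 members, against 32.1% of all genes. The members were measured with less scatter than most genes: their median within-group SD was 0.13 log2 units against 0.21 for all genes tested. For 28 of the 31 members not called, the 95% interval of the difference lay within 1.5-fold either way (0.585 log2 units). The exceptions were Ccne2, Fen1 and Prim2.

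**Figure D1:**
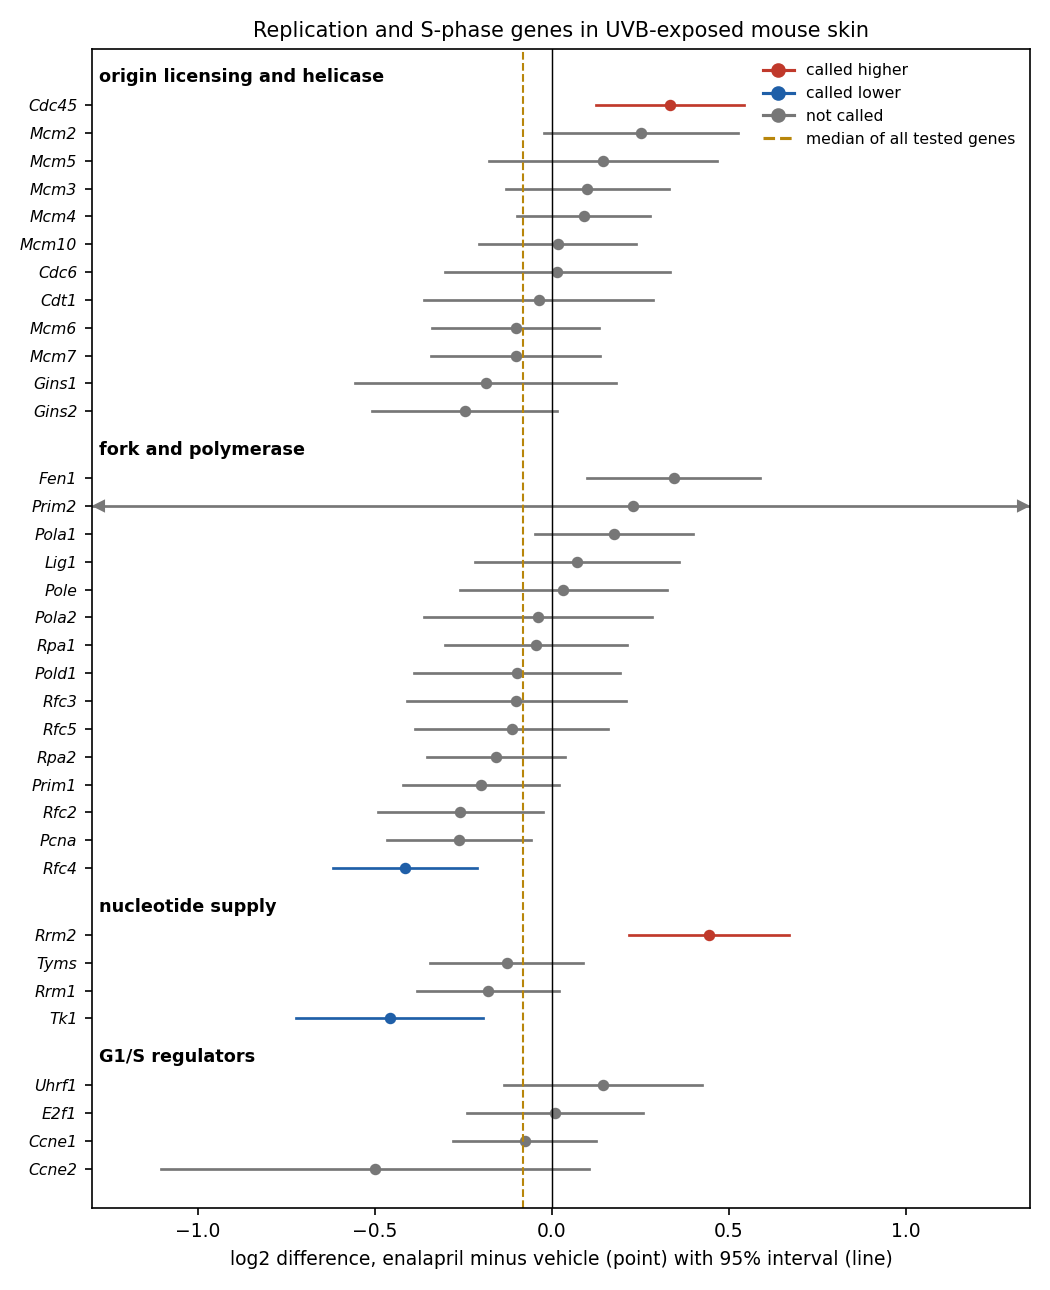
Log2 difference (enalapril minus vehicle; x axis) with its 95% interval for each of the 35 genes (y axis), by role group; red marks genes called higher, blue lower, grey not called, the dashed line is the median of all genes tested (-0.083), and the interval of Prim2 runs past both edges. Rrm2 (0.44) and Cdc45 (0.33) lie right of 0 and Tk1 (-0.46) and Rfc4 (-0.42) left of it; Cdc45 lay at -0.004 when arrays were centred on E1A control probes and at -0.033 with no centring.

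Of the 4 nucleotide supply genes, Rrm2 was called higher, Tk1 lower, and Rrm1 and Tyms were not called. Rrm2, the small subunit of ribonucleotide reductase that limits the enzyme in S phase, read -0.11, -0.16, 0.00 and 0.005 on vehicle arrays 1 to 4, and 0.55, 0.28, 0.28 and 0.39 on enalapril arrays 1 to 4. All 4 enalapril arrays lay above every vehicle array. The difference was 0.44 ± 0.099 (SE, n = 4 per group), or 1.36-fold higher, with a limma adjusted p of 0.0256. It fell to 0.11 (adjusted p = 0.738) with arrays centred on E1A control probes and to 0.078 (adjusted p = 0.862) in the deposited values with no centring. Those 2 scalings shift every gene down alike, to a median over all genes of -0.42 and -0.45. Tk1 read -0.795 and -0.824 there, and Rfc4 -0.753 and -0.782, both called with E1A centring and neither in the deposited values. Rrm1, the large subunit of the same enzyme, read 2.14, 2.23, 2.06 and 2.20 in vehicle and 1.95, 1.91, 1.95 and 2.09 in enalapril. Its enalapril arrays 1 to 3 lay below all vehicle arrays and array 4 among them. The difference of -0.18 ± 0.089 did not pass the test (adjusted p = 0.197).

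Within each array, Rrm2 relative to Rrm1 was higher by 0.63 ± 0.096 log2 units in enalapril than in vehicle, and the groups did not overlap. Subtracting a constant from each array leaves this difference as it is, and under quantile normalization it was 0.52. It was 1 of 4 such differences, each built on a called gene after the values were seen, and is given with no test. The others were Tk1 relative to Tyms (-0.33 ± 0.076), Cdc45 relative to the mean of Gins1 and Gins2 (0.55 ± 0.14) and that of Rfc4, given below. The groups were apart in all 4, as they were for the called genes themselves.

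Tk1, the cytosolic thymidine kinase that salvages thymidine during S phase, read 1.08, 1.15, 1.18 and 1.19 in vehicle. It read 0.52, 0.70, 0.57 and 0.97 in enalapril, so that array 4 stood nearest the vehicle group without reaching it. The difference was -0.46 ± 0.12, or 1.37-fold lower (adjusted p = 0.0357). Tyms, thymidylate synthase, makes dTMP from dUMP by the other route. Its levels were 2.67, 2.84, 2.62 and 2.71 in vehicle and 2.50, 2.60, 2.50 and 2.71 in enalapril, with a difference of -0.13 ± 0.095 (adjusted p = 0.384). Enalapril array 4 again lay within the vehicle range and the other 3 below it.

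Tyms had 3 tested probes, which differed in the call. With every probe tested on its own, a dim probe was lower by -0.55 ± 0.12 (limma adjusted p = 0.032), but it lay well above background on only 3 vehicle arrays and 1 enalapril array. The third probe differed by -0.018.

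The helicase group held 1 called gene. Cdc45, the helicase component that joins the MCM ring when origins fire, read -2.62, -2.65, -2.65 and -2.65 in vehicle and -2.49, -2.28, -2.22 and -2.24 in enalapril. All 4 enalapril arrays lay above the vehicle arrays, which differed little among themselves (SD 0.014). Cdc45 was higher by 0.33 ± 0.092, or 1.26-fold (limma adjusted p = 0.046), but read -0.004 with arrays centred on the E1A control probes and -0.033 in the deposited values with no centring. Both scalings differ from the reported one by 1 constant per array, so every gene's difference shifted by the same amount. The median of all genes moved from -0.083 to -0.42 and -0.45. Cdc45 lay 0.416 above that median in each case, which follows from the scaling alone. Its probe was dim, with processed intensities from 141 to 246.

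The GINS genes encode the other partners of the active helicase. Gins2 read 0.18, -0.087, 0.10 and 0.13 in vehicle and -0.24, -0.16, -0.33 and 0.064 in enalapril, a difference of -0.25 ± 0.12 (adjusted p = 0.175). Gins1 read -0.49, -0.47, -0.43 and -0.62 in vehicle and -0.69, -0.70, -1.10 and -0.28 in enalapril, a difference of -0.19 ± 0.16 (adjusted p = 0.459). In both genes enalapril arrays 1 to 3 lay below all vehicle arrays, and array 4 did not.

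The MCM2-7 ring showed no called subunit among its 6. Mcm2 read 0.14, -0.097, 0.028 and -0.13 in vehicle and 0.26, 0.055, 0.14 and 0.49 in enalapril, a difference of 0.25 ± 0.12 that did not pass (adjusted p = 0.19). The 6 differences ran from -0.10 (Mcm6 and Mcm7) to 0.25 (Mcm2), with Mcm5 at 0.14, Mcm3 at 0.10 and Mcm4 at 0.089. The 95% intervals of the 6 subunits together spanned -0.34 to 0.53. A second probe of Mcm3 gave 0.43 (adjusted p = 0.0638 with every probe tested), not called either.

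The loaders Cdc6 and Cdt1 differed by 0.015 and -0.038, with intervals between -0.36 and 0.33. Mcm10, which helps the helicase to start unwinding, differed by 0.016. Of the 12 genes of this role group, 7 differences lay above 0 and 5 below, with a median of 0.016. Cdc45 was the only gene of the 12 with an unadjusted p under 0.05.

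**Figure D2:**
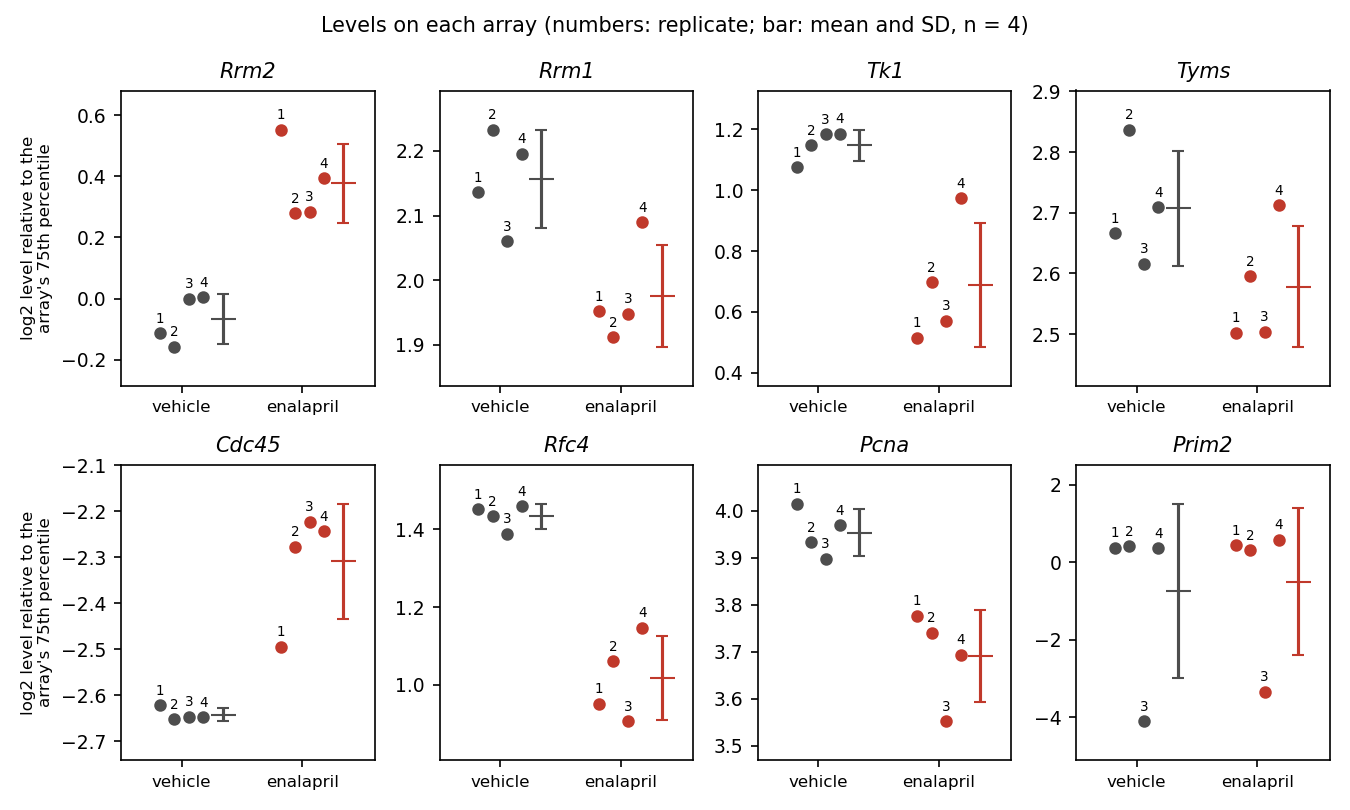
Level on each array (y axis, log2 relative to the array's 75th percentile; scales differ between panels) for 8 genes in the vehicle (grey) and enalapril (red) groups; numbered points are replicates and the bar gives the mean and SD (n = 4). The groups are apart for Rrm2, Tk1, Cdc45, Rfc4 and Pcna, overlap for Rrm1 and Tyms, and array 3 of each group lies far below the rest for Prim2.

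Among the 15 fork and polymerase genes, Rfc4 alone was called. Rfc4, a subunit of the clamp loader, read 1.45, 1.43, 1.39 and 1.46 in vehicle and 0.95, 1.06, 0.91 and 1.15 in enalapril. The groups stood apart, and the enalapril arrays varied more (SD 0.032 in vehicle). The difference was -0.42 ± 0.089, or 1.33-fold lower (limma adjusted p = 0.0233). The small subunits Rfc2, Rfc3 and Rfc5 differed by -0.26, -0.10 and -0.11 and were not called. Rfc1, the large subunit and not one of the 35, differed by 0.13 ± 0.10 (adjusted p = 0.408), so its sign was not resolved. Rfc2 read 3.68, 3.62, 3.40 and 3.60 in vehicle and 3.22, 3.31, 3.26 and 3.48 in enalapril (adjusted p = 0.121).

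Within each array, Rfc4 relative to the mean of Rfc2, Rfc3 and Rfc5 was lower by -0.26 ± 0.059 in enalapril, with no overlap of the groups, again computed after the values were seen. Under quantile normalization this within-array difference was -0.27.

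Pcna, the sliding clamp that RFC loads, read 4.02, 3.93, 3.90 and 3.97 in vehicle and 3.78, 3.74, 3.55 and 3.69 in enalapril. Every enalapril array lay below every vehicle array, yet the difference of -0.26 ± 0.089 did not pass (limma adjusted p = 0.0816) and was -0.075 under quantile normalization. Pcna was called lower with an intensity trend and robust estimation (adjusted p = 0.0489) and with array weights (0.0379), and read -0.60 and -0.63, not called, with E1A centring and no centring. Fen1, the flap nuclease that trims Okazaki fragments, read -0.13, -0.26, 0.019 and -0.25 in vehicle and 0.013, 0.21, 0.33 and 0.21 in enalapril. Its difference was 0.34 ± 0.11 (adjusted p = 0.0658), with only enalapril array 1 inside the vehicle range. Lig1, the ligase that seals the same fragments, differed by 0.071.

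None of the polymerase subunits among the 35 was called by limma at an adjusted p under 0.05, and none had an unadjusted p under 0.05. The catalytic subunits of polymerases delta and epsilon, Pold1 and Pole, differed by -0.099 and 0.032. In polymerase alpha, the catalytic subunit Pola1 differed by 0.17, with no overlap of the groups but an adjusted p of 0.254, and Pola2 by -0.040. Prim1, the catalytic primase subunit, differed by -0.20 (adjusted p = 0.193). The single-stranded DNA binding subunits Rpa1 and Rpa2 differed by -0.046 and -0.16, the latter with no overlap (adjusted p = 0.238).

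Prim2, the other primase subunit, split the samples in a way that did not follow treatment. Its levels were 0.38, 0.41, -4.10 and 0.37 in vehicle and 0.44, 0.31, -3.34 and 0.58 in enalapril. In processed intensity these are 90 on vehicle array 3 and 80.9 on enalapril array 3, against 1090 to 2050 on the other 6. The spot lay well above background on all 8 arrays. With both low arrays in the fit the difference was 0.23 with a 95% interval from -2.55 to 3.01, too wide to compare the groups. Prim1, its partner, showed no such split (1.62 and 1.38 on the same 2 arrays, within or just below the others).

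None of the 4 G1/S regulators was called by limma, and none had an unadjusted p under 0.05. E2f1, a transcription factor of the E2F family, read -0.99, -1.19, -1.12 and -1.08 in vehicle and -1.09, -1.28, -1.11 and -0.87 in enalapril, a difference of 0.009 ± 0.11 (limma adjusted p = 0.963). A second, dimmer probe of E2f1 gave 0.42 (adjusted p = 0.0567 with every probe tested). Ccne1, a cyclin that activates Cdk2 at S-phase entry, read 0.45, 0.42, 0.32 and 0.43 in vehicle and 0.28, 0.27, 0.30 and 0.47 in enalapril. Its difference was -0.077 ± 0.089 (adjusted p = 0.586), and its second probe had the opposite sign, 0.11.

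Ccne2, the related cyclin, read -2.92, -2.78, -3.36 and -3.07 in vehicle and -3.76, -3.02, -3.14 and -4.22 in enalapril. The difference of -0.50 ± 0.27 was the largest in size among the 35 genes but came from 2 low arrays, enalapril 1 and 4 (adjusted p = 0.229). Normexp turned it to 0.35, and normexp with very bright local backgrounds replaced by the array median (repaired normexp) gave -0.11. Uhrf1, which brings the maintenance DNA methyltransferase to replicated DNA, read 0.32, 0.55, 0.41 and 0.59 in vehicle and 0.79, 0.75, 0.55 and 0.37 in enalapril, a difference of 0.14 ± 0.12 (adjusted p = 0.449). Of the 11 members with more than 1 tested probe, 10 had the same sign on all of them.

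The arrays of the enalapril group did not behave alike for these genes. Taking each gene's deviation from its vehicle mean, the median over the 35 genes was -0.12, -0.099 and -0.11 on enalapril arrays 1 to 3 and 0.12 on array 4, while the vehicle arrays lay between -0.046 and 0.037. Over all genes tested the medians of the enalapril arrays ran from -0.13 to -0.034. Array 4 was the highest of the enalapril arrays for 24 of the 35 members, against 46.8% of all genes tested. The licensing and helicase group stood at 0.22 on array 4 and between -0.080 and 0.003 on arrays 1 to 3.

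**Figure D3:**
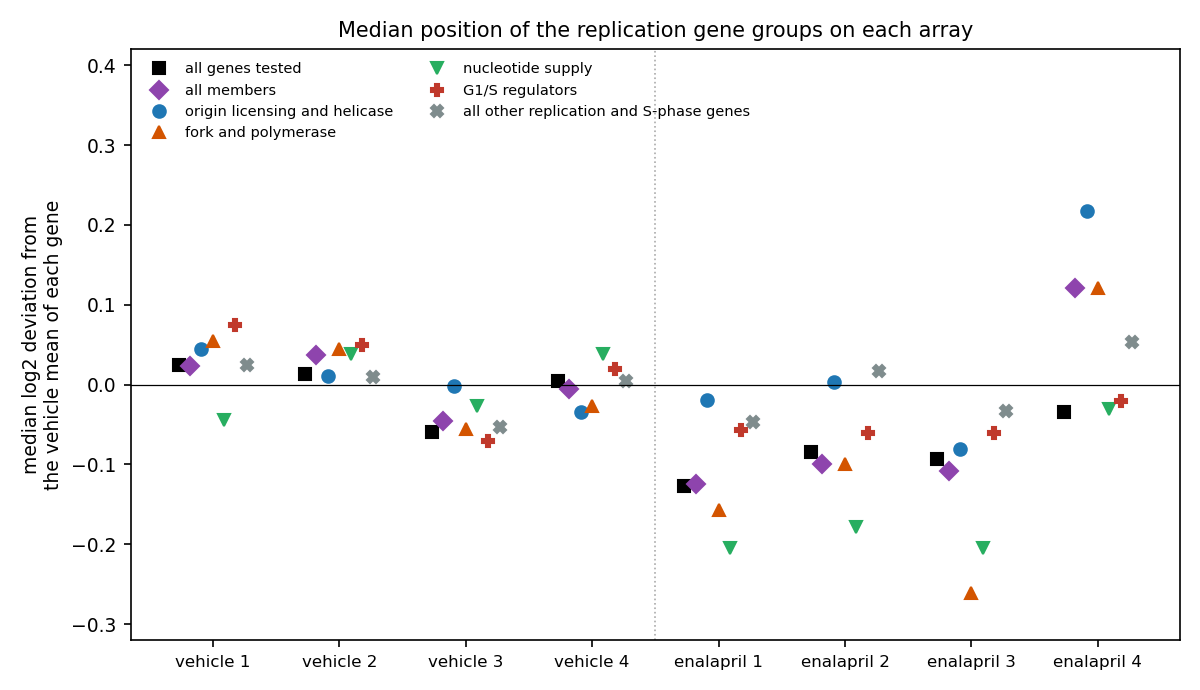
Median log2 deviation from each gene's vehicle mean (y axis) on each of the 8 arrays (x axis) for all genes tested, the 35 members, their 4 role groups and the 79 other replication genes. Enalapril array 4 lies at 0.12 for the members and 0.22 for licensing and helicase, while enalapril arrays 1 to 3 lie between -0.12 and -0.099 for the members.

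The 4 calls were close to the threshold and were sensitive to single arrays. Leaving out vehicle array 1, 2 or 4, or enalapril array 1, 2 or 3, left none of the 35 genes called. The adjusted p-values were then 0.0527 to 0.0707 for Rrm2 and 0.0583 to 0.0659 for Rfc4. Calls over all genes also fell, from 2709 to 889, 930 and 1084 without vehicle array 1, 2 or 4. Without enalapril array 1 or 2 they fell to 918 and 845. Tk1 and Cdc45 were also lost without vehicle array 3, with adjusted p-values up to 0.0904 and 0.115. Without enalapril array 4, all 4 calls stood, Gins2 (adjusted p = 0.0486) and Rfc2 (0.0476) were called lower as well, and 4949 genes were called in all. The sizes moved less: over the 8 fits with 1 array left out, Rrm2 stayed between 0.39 and 0.48, Cdc45 between 0.30 and 0.39, Rfc4 between -0.46 and -0.38 and Tk1 between -0.55 and -0.40.

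**Figure D4:**
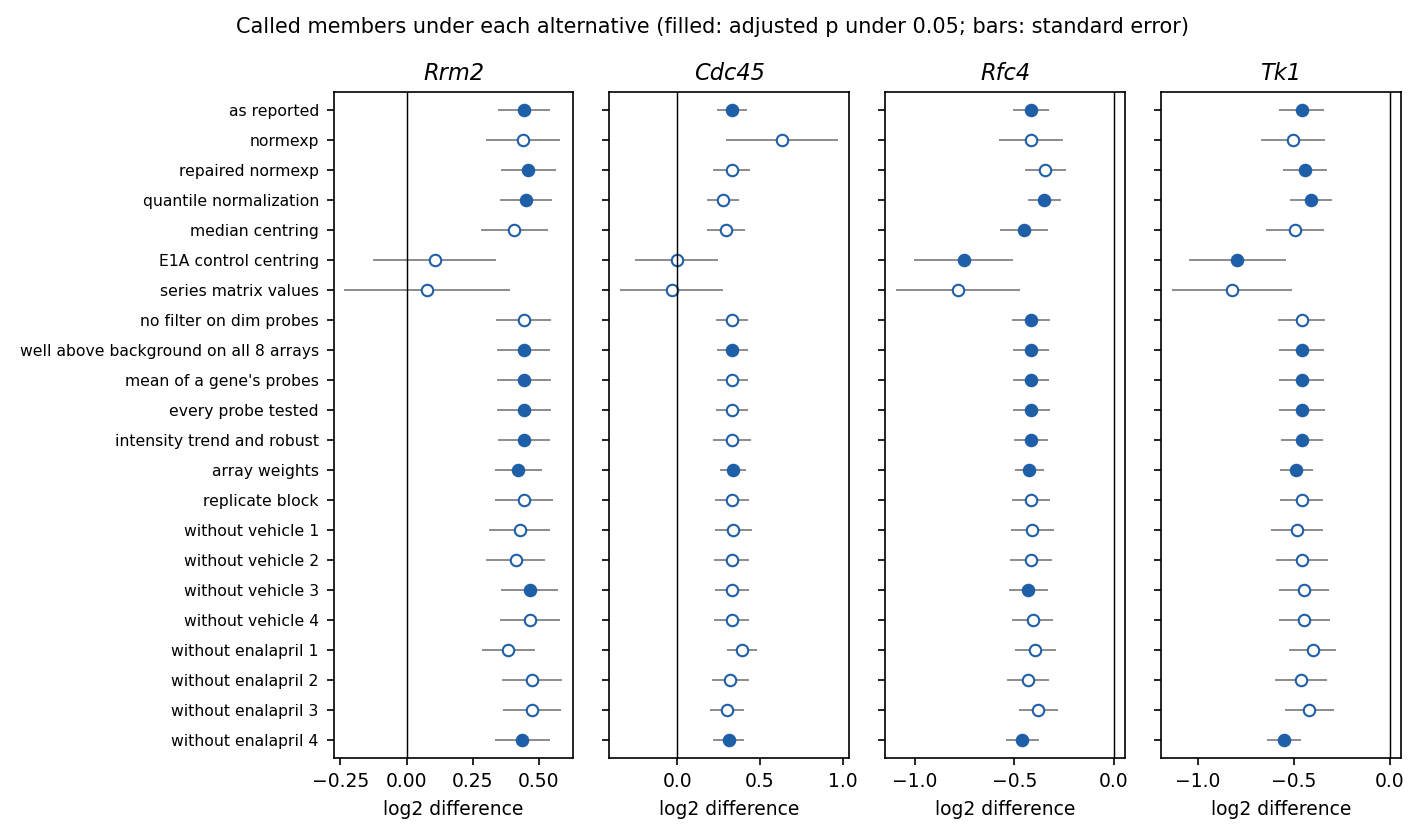
Log2 difference (x axis) with its standard error for Rrm2, Cdc45, Rfc4 and Tk1 under each alternative processing (y axis); filled points have an adjusted p under 0.05. Rfc4 and Tk1 lay below 0 and Rrm2 above 0 in every setting drawn, while Cdc45 lay at -0.004 with E1A control centring and -0.033 in the series matrix values.

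The other genes of the same pathway showed the same mixed picture. Of 79 further replication and S-phase genes, all tested, 3 were called higher (3.8%, against 4.33% of all genes) and 4 lower (5.06%, against 9.84%). Their median difference was -0.013, against -0.083 for all genes tested. None of the 17 other licensing and firing genes was called by limma, and 5 of them had an unadjusted p under 0.05, against 32.1% of all genes. The smallest p-values there were those of Orc4, a subunit of the origin recognition complex (-0.30, adjusted p = 0.0653), and Topbp1, which helps to load Cdc45 (0.32, adjusted p = 0.0911).

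At the fork, 23 further genes were tested. Timeless, of the fork protection complex, rose by 0.37 ± 0.10 (adjusted p = 0.0441). Pole4, a small subunit of polymerase epsilon, fell by 0.40 ± 0.10 (adjusted p = 0.0345), and Asf1a, a histone chaperone that works behind the fork, fell by 0.33 ± 0.085 (adjusted p = 0.0383). Among 11 further nucleotide supply genes, Mthfd1, a folate enzyme that feeds purine and thymidylate synthesis, rose by 0.49 ± 0.094 (adjusted p = 0.0174). Dtymk, the kinase that acts on dTMP after Tk1 and Tyms, fell by 0.40 ± 0.099 (adjusted p = 0.0344). By the mean of its probes, Dtymk read -0.303 (limma adjusted p = 0.0766), not called, while Mthfd1 read 0.664 (adjusted p = 0.0153) and stayed called. Asf1a read -0.165 (adjusted p = 0.508), Pole4 -0.299 (0.0893) and Timeless 0.353 (0.0714) by that mean, none of them called. E2f4 and Cdkn2a, described next, stayed called (adjusted p = 0.0277 and 0.0338).

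Of 28 further G1/S regulators, E2f4, an E2F factor best known as a repressor, rose by 0.66 ± 0.14 (limma adjusted p = 0.0244). It read -3.79, -3.93, -3.64 and -3.34 in vehicle and -3.21, -3.04, -2.97 and -2.84 in enalapril. Cdkn2a, which encodes inhibitors of the G1/S transition, fell by 0.91 ± 0.22 (adjusted p = 0.0304). It read -1.72, -1.92, -2.03 and -1.77 in vehicle and -2.88, -3.18, -2.90 and -2.09 in enalapril, so that array 4 again lay nearest the vehicle group. With 1 array left out, each of these 7 genes lost its call in at least 2 of the 8 fits. Timeless, Pole4 and Asf1a kept theirs only without enalapril array 4, and their adjusted p-values reached 0.107, 0.0943 and 0.0988 in the other fits. Mthfd1 lost its call when vehicle array 1 or 2 was dropped (adjusted p at most 0.0536), and E2f4 when vehicle array 1 or 2 or enalapril array 2 or 3 was (at most 0.0668). Dtymk and Cdkn2a lost theirs when any array but vehicle 3 and enalapril 4 was dropped (at most 0.0924 and 0.0782). None of the 7 changed sign in any of the 23 alternatives, but sizes and calls did change. With E1A centring and in the uncentred deposited values, Timeless read 0.033 and 0.004, Mthfd1 0.15 and 0.13, and E2f4 0.32 and 0.30, none of them called. Cdkn2a read -0.19 with normexp, not called, and -0.59 with repaired normexp, called (limma adjusted p = 0.049).

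The arrays themselves differed in ways that move with the groups. The 4 vehicle arrays shared slide 1 and scan 1, the 4 enalapril arrays slide 2 and scan 2, and treatment cannot be told apart from slide or scan. Median local background was 57.5 to 66 in vehicle and 48 to 52 in enalapril. Calls also varied with brightness: among the brightest 3822 of the genes tested, which held 8 members, 17.5% of genes were called lower and 0.733% higher. There the median difference was -0.12 for the members and -0.19 for all genes. The dimmest 3821 genes held no member.

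The tissue label was borne out by keratinocyte and fibroblast markers, all well above background on all 8 arrays. Of 8 basal keratinocyte markers, the cells that replicate in the epidermis, none was called by limma. Only 1 had an unadjusted p under 0.05, Trp63 (0.35, adjusted p = 0.0505). Their summed level relative to the 75th percentile was 518 to 745 in vehicle and 586 to 710 in enalapril. None of 8 hair matrix and shaft markers or 6 sebocyte markers tested was called. Their median differences were -0.23 and 0.10, and the hair list ran from -0.72 to 0.25 on single enalapril arrays. Skeletal muscle markers were called lower in 3 of 9 cases (33.3%, against 9.84% of all genes), with summed levels of 374 to 590 in vehicle and 332 to 367 in enalapril. Adipocyte markers were called lower in 3 of 7 cases (42.9%), with summed levels of 292 to 380 and 189 to 297. No defining marker of muscle or fat was below background on any array. Their part in the results on replication genes was not tested.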

How the data were processed

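Total RNA of 8 skin samples was measured on Agilent mouse arrays, 1 colour (Cy3) each. The deposited intensity of each spot is, per the file headers, the background-subtracted output of Feature Extraction 9.1.3.1 (9.1 in the submitters' processing notes), not scaled between arrays. The deposited flags, other values of 0 or 1, mark spots well above background. The authors' deposited series matrix holds log2 processed intensities with no centring.

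Levels are log2 processed intensity minus each array's 75th percentile (821.5 to 1540 in intensity; 67.12% to 72.71% of spots well above background, no spot saturated). Control spots and outlier flags were left out. Each gene took its probe of highest mean signal, well above background on at least 4 of 8 arrays. Probes were named by accession (22951), symbol (6659), synonym (3092) or the file's name (1936), and 6536 had no name. The number of arrays limits the precision.

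Groups were compared with limma 3.58.1 (lmFit, eBayes, 2-sided; R 4.3.3) and Benjamini-Hochberg adjustment over 19108 genes. On data simulated for this comparison over 19108 genes, with 50 changed by each size, 20% were called at a true log2 difference of 0.5, 68% at 1 and 90% at 1.5. Far more genes were called in the data (2709) than were changed there, and the simulated spreads were those of all genes. Their median SD was 0.21, against 0.13 for the members, so these shares do not give the power for the 35 genes. The 35 genes, the other gene lists and the markers were chosen with earlier results of these data known. Per-array values are given for called members and the 4 smallest p-values of each role group. Replicate numbers only name samples in the labels and were not used as pairs. Correlations of deviations were -0.16, 0.048, 0.15 and -0.020 for numbers 1 to 4, against -0.13 to 0.22 between samples of unlike number.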

Additional observations from a re-analysis of the deposited data

Results flagged for a closer look

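Among 70 groups of 4 arrays (35 genes in 2 groups), 4 held an array far from the other 3 by Dixon's criterion, which chance meets in about 1 in 20 groups. Prim2 read -4.10 on vehicle array 3, against 0.37 to 0.41 on the other vehicle arrays, and -3.34 on enalapril array 3, against 0.31 to 0.58 on the other enalapril arrays. Pola1 read 0.10 on vehicle array 3, against 0.30 to 0.32 on the other vehicle arrays. Ccne1 read 0.47 on enalapril array 4, against 0.27 to 0.30 on the other enalapril arrays.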

How the results depend on the processing

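The log2 directions of Rrm2 (higher), Tk1 and Rfc4 (lower) held in all 23 alternatives (Rrm2 at 0.11 and 0.078 with E1A centring and in the series matrix), but their calls were kept in 10, 10 and 12 of them, and that of Cdc45 in 4. As reported, 2 members were called higher, 2 lower and 2709 genes in all, with a member median of -0.046. The members called higher and lower, and the genes called, were 0, 0 and 0 with normexp. With repaired normexp (very bright local backgrounds, 6 on enalapril array 3, replaced by the array median) they were 1, 1 and 1838. With no filter on dim probes they were 0, 1 and 1496. Quantile normalization left 1 higher with a median of 0.013, median centring 0 higher and 1 lower with -0.082, E1A control centring 0 higher with -0.38, and the series matrix values 0 and 0 with -0.41. Taking the mean of a gene's probes, testing every probe, or an intensity trend with robust estimation left 1 higher each. Array weights gave 5 lower, 5939 genes and a median of -0.13. An adjusted p under 0.1 gave 4538 genes, and a fold of at least 1.5 gave 0, 0 and 1361. With 1 array left out, 0 to 2 members were called higher, 0 to 4 lower and 845 to 4949 genes in all, with a member median from -0.13 to -0.034. With replicate number as a block, 0 members and 611 genes were called. In the labels the numbers only name samples, and not every sample correlates best with its own number.

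The median of all genes was -0.42 with E1A centring, -0.45 in the series matrix, -0.029 with quantile normalization, -0.12 with median centring, -0.17 with no filter and 0.14 with normexp, against -0.083 as reported. The share of calls that were higher was 30.6% as reported, 41.7% of 1906 with quantile normalization, 3.87% of 2611 with E1A centring and 5.17% of 1992 in the series matrix. Among genes whose reported difference exceeded its own SE, signs turned with E1A centring and in the series matrix, in that order, for Cdc45 (-0.004, -0.033), Mcm2 (-0.086, -0.11), Mcm4 (-0.25, -0.28), Mcm5 (-0.19, -0.22), Pola1 (-0.16, -0.19) and Uhrf1 (-0.19, -0.22). Fen1 turned in the series matrix (-0.021), Mcm4 (-0.14) and Ccne2 (0.35) with normexp, and Tyms with quantile normalization (0.013). E1A centring and the series matrix differ from the reported scaling by 1 constant per array, so every gene's difference shifted alike there. Mcm2, for example, lay 0.333 above the median of all genes in each. With repaired normexp, which differs from normexp only in the replaced backgrounds, Mcm4 read 0.008 and Ccne2 -0.11, with the reported signs. The cause of the changes with normexp and quantile normalization was not tested further. Counting values of any size, 13 members changed sign with E1A centring and 14 in the series matrix. Of the other single-gene values, 795 kept their side of the threshold, 57 of them with another sign and a reported difference within its SE of 0, 146 lost the call and 9 gained one.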

Other observations

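A list of 18 mitosis genes, which act after S phase, was measured beside the replication genes, and all 18 lay well above background on all 8 arrays. By limma, 2 were called higher, Top2a, which untangles replicated chromosomes (0.58, adjusted p = 0.0221), and Kif11, a spindle motor (0.53, adjusted p = 0.0484). Cdc20, an activator of the anaphase-promoting complex, was called lower (-0.77, adjusted p = 0.0212). The calls were 11.1% of the list higher and 5.56% lower, against 4.33% and 9.84% of all genes. The median of the 18 differences was -0.14, with 6 above 0 and 12 below. Mki67, the common marker of cycling cells, differed by 0.26 (adjusted p = 0.233) and Cdk1 by -0.017 (adjusted p = 0.956). On single arrays the median deviation of the list ran from -0.073 to 0.17 in vehicle and was -0.38, -0.014 and -0.19 on enalapril arrays 1 to 3 and 0.12 on array 4.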
